A study of Capra hircus with 6 samples.

Results

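The genes described here are those of the complement, coagulation and plasminogen systems. They were chosen as the entries of the deposited table annotated with the KEGG pathway "Complement and coagulation cascades" that carry read counts, leaving out integrin symbols. That gave 70 of the 16599 genes with read counts: 21 complement components, 11 complement regulators or receptors, 24 coagulation genes, 7 plasminogen system genes and 7 whose role the table does not give. Of the 70, 14 are named only by a LOC identifier. A further 20 entries of the pathway are blank in the table and were not analysed here, among them C6, C9, F7, F9, FGA, VTN, VSIG4 and CR2.

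The material was messenger RNA of mGSCs-I-SB cells, a line of the goat (Capra hircus) that is labelled as spermatogonial stem cells and was grown in medium with 10% fetal bovine serum. There were 6 libraries, 2 from each of 3 lines. The line shCON carried a control short hairpin RNA and is labelled wild type, shUCHL1 is labelled as a knockdown of the ubiquitin hydrolase UCHL1, and shHSPA8 as a knockdown of the constitutive chaperone HSPA8. The number of hairpins or clones behind a line is not stated, nor whether its 2 libraries stem from separate cultures. The p-values therefore reflect only how far these libraries spread, and that spread may be technical. The lines share a single estimate of the spread of each gene, although they differ in it. The chi-square per degree of freedom between the 2 libraries of a line was 21.8 in shCON, 11.8 in shHSPA8 and 2.38 in shUCHL1. A p-value between a pair of lines thus also depends on the libraries of the remaining line.

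Complement is a cascade of plasma and cell-surface proteins. The classical and lectin routes start with the proteases C1R, C1S, MASP1 and MASP2, converge with the alternative route on C3, and end in the terminal pore of C5 to C9, while CD55 and CD59 protect the cell's own membrane. Coagulation starts when tissue factor (F3) meets factor VII and ends in fibrin, held back by TFPI and by the thrombomodulin and protein C pathway. Plasmin, released from plasminogen by the activators PLAT and PLAU, dissolves fibrin and matrix. The liver makes most of the plasma proteins, and cultured mesenchymal cells are known to make several of them.

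Levels of a gene across libraries are given as CPM, read counts relative to the TMM-scaled library size. Errors are SDs over the libraries of a line (n = 2). Levels of different genes are compared as the deposited FPKM, which divides by transcript length. "Higher" and "lower" calls are from edgeR's quasi-likelihood test with a Benjamini-Hochberg adjusted p under 0.05 over all 12665 genes tested, and each log2 fold change comes with its standard error (SE). Total counts per library lay between 1.57e+07 and 1.64e+07, and 3 counts in a library corresponded to 0.180 to 0.194 CPM. Each targeted transcript was lower in its own line, UCHL1 at 428 ± 32.3 CPM in shCON and 96.0 ± 2.36 CPM in shUCHL1, and HSPA8 at 4064 ± 67.9 CPM in shCON and 2579 ± 73.4 CPM in shHSPA8. HSPA8 was also called 1.30-fold higher in shUCHL1 than in shCON (5298 ± 65.4 CPM, edgeR adjusted p = 0.0129). That call was lost with a replicate block and without either shUCHL1 library. UCHL1 was not called in shHSPA8 against shCON (360 ± 36.5 CPM, edgeR adjusted p = 0.151). Of 12 male germ cell markers, 6 carried values and 5 were tested. In shCON these were UCHL1 itself, ETV5 at 12.7 ± 0.789 CPM, ID4 at 2.63 ± 0.949 CPM, GFRA1 at 0.814 ± 0.372 CPM and DDX4 at 0.721 ± 0.413 CPM, and KIT had 3 counts in all. By comparison all 10 fibroblast and peritubular myoid markers were tested, with COL1A1 at 8274 ± 913 CPM in shCON. Among the germ cell markers, ID4 was called higher in both knockdown lines than in shCON. Its log2 fold change was 1.2 in shUCHL1 (SE 0.25, edgeR adjusted p = 0.0186). In shHSPA8 it was 1.85 (SE 0.24, edgeR adjusted p = 0.00282). ETV5, DDX4 and GFRA1 were not called against shCON in either line. DDX4 and GFRA1 had log2 fold changes of 1.38 (SE 0.38) and -2.11 (SE 0.71) in shUCHL1. Their edgeR adjusted p was 0.0521 and 0.0935. In bulk RNA, fewer cells of a type and less RNA per cell cannot be told apart.

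The cells carried transcripts of only part of the cascades. Of the 70 genes, 36 had enough reads to be tested, and for 27 of the other 34 no library held more than 3 counts. The circulating zymogens and plasma factors were mostly in that low range. C1QA, C1QB, C8A, CFD, MBL2, F10, KNG1, PROC and CPB2 had 1 count each over all 6 libraries, as did LOC102169502 and LOC102169786. C5, CFI and SERPINF2 had 2. F2, the thrombin gene, PLG, the plasminogen gene, C4BPB and C5AR1 had 3, and F12 and KLKB1 of the contact system had 4. FGB had 5 counts, C7 and CFHR5 6, LOC102170693 7, C3AR1 8, F11 and LOC102172711 10, F2R 11 and LOC102188569 16. F5 had 28 counts, C2 32, SERPING1 34 and SERPINC1 50. A fit without the low-count filter called none of these 34 in any comparison. In that fit C2, a protease of the classical and lectin convertases, had the lowest adjusted p, with 13 and 9 counts in shCON, 1 and 2 in shUCHL1 and 1 and 6 in shHSPA8 (edgeR adjusted p = 0.0694 for shUCHL1 against shCON). SERPING1, the inhibitor of C1R and C1S, had 9 counts in each shCON library, 2 and 5 in shUCHL1 and 4 and 5 in shHSPA8.

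**Figure D1:**
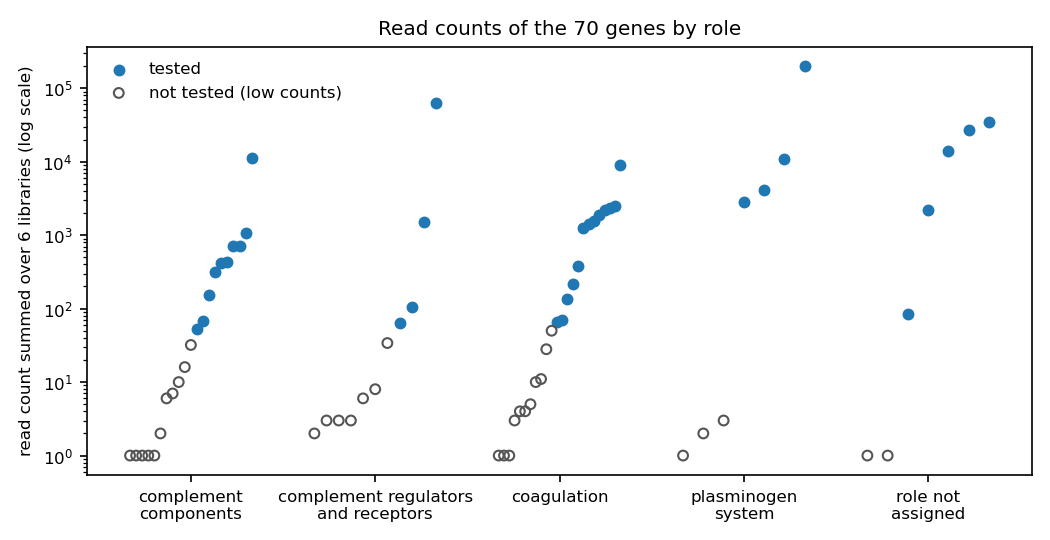
Read count of each of the 70 genes summed over 6 libraries (log scale) by role, each point being 1 gene. Filled points are the 36 genes tested and open points the 34 with too few reads, and each role has members in both sets.

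Per transcript length, a single gene led several roles. CD59, the membrane inhibitor of the terminal pore, stood at 436 ± 11.4 FPKM in shCON and made up 95.5% to 98.2% of the FPKM of regulators and receptors in every library. Among the components C3 was the most abundant, at 6.61 ± 0.191 FPKM in shCON, 45.1 ± 0.0212 FPKM in shUCHL1 and 21.4 ± 0.933 FPKM in shHSPA8. C3 thus moved from 36.5% of the component FPKM in both shCON libraries to 69.7% and 71.4% in shUCHL1 and 51.3% and 53.9% in shHSPA8. Among the coagulation genes thrombomodulin (THBD) led in shCON with 29.5 ± 2.02 FPKM, followed by the protein C receptor PROCR with 21.3 ± 1.87 FPKM and F3 with 10.8 ± 0.339 FPKM. In shUCHL1, BDKRB1 (19.8 ± 1.1 FPKM), PROCR (17.1 ± 1.76 FPKM), F3 (14.4 ± 1.05 FPKM) and F2RL2 (12.5 ± 0.622 FPKM) stood above THBD (10.7 ± 0.17 FPKM). THBD had no clear lead in shHSPA8 either, where BDKRB1 (21.7 ± 1.06 FPKM), THBD (21.4 ± 1.05 FPKM) and PROCR (21.0 ± 1.2 FPKM) stood close together.

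Against shCON, 14 of the 36 tested genes were higher and 5 lower in shUCHL1, where 8.54% of all tested genes were higher and 7.15% lower. In shHSPA8, 14 were higher and 3 lower, where 8.66% of all tested genes were higher and 6.02% lower. These counts include CD55, CFB, F2RL3 and VWF. Each of them would not have passed the low-count filter without the reads of the line where it is highest. The median log2 fold change of the 36 genes was 0.41 in shUCHL1, against 0.01 over all tested genes, and 0.36 in shHSPA8, against 0.00. Both comparisons use the same shCON libraries, so they are not independent of each other. With shCON the reference for both, a shCON line that itself departed and a response to both hairpins cannot be told apart. Leaving out a library gave 8 to 15 higher and 3 to 7 lower genes in shUCHL1, the fewest higher without shUCHL1 replicate 2 and the fewest lower without either shUCHL1 library. In shHSPA8 it gave 9 to 13 higher and 1 to 4 lower, with 9 higher without shHSPA8 replicate 1 and 1 lower without any 1 of the shUCHL1 or shHSPA8 libraries. With a replicate block, 12 were higher and 5 lower in shUCHL1 and 10 higher and 1 lower in shHSPA8.

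**Figure D2:**
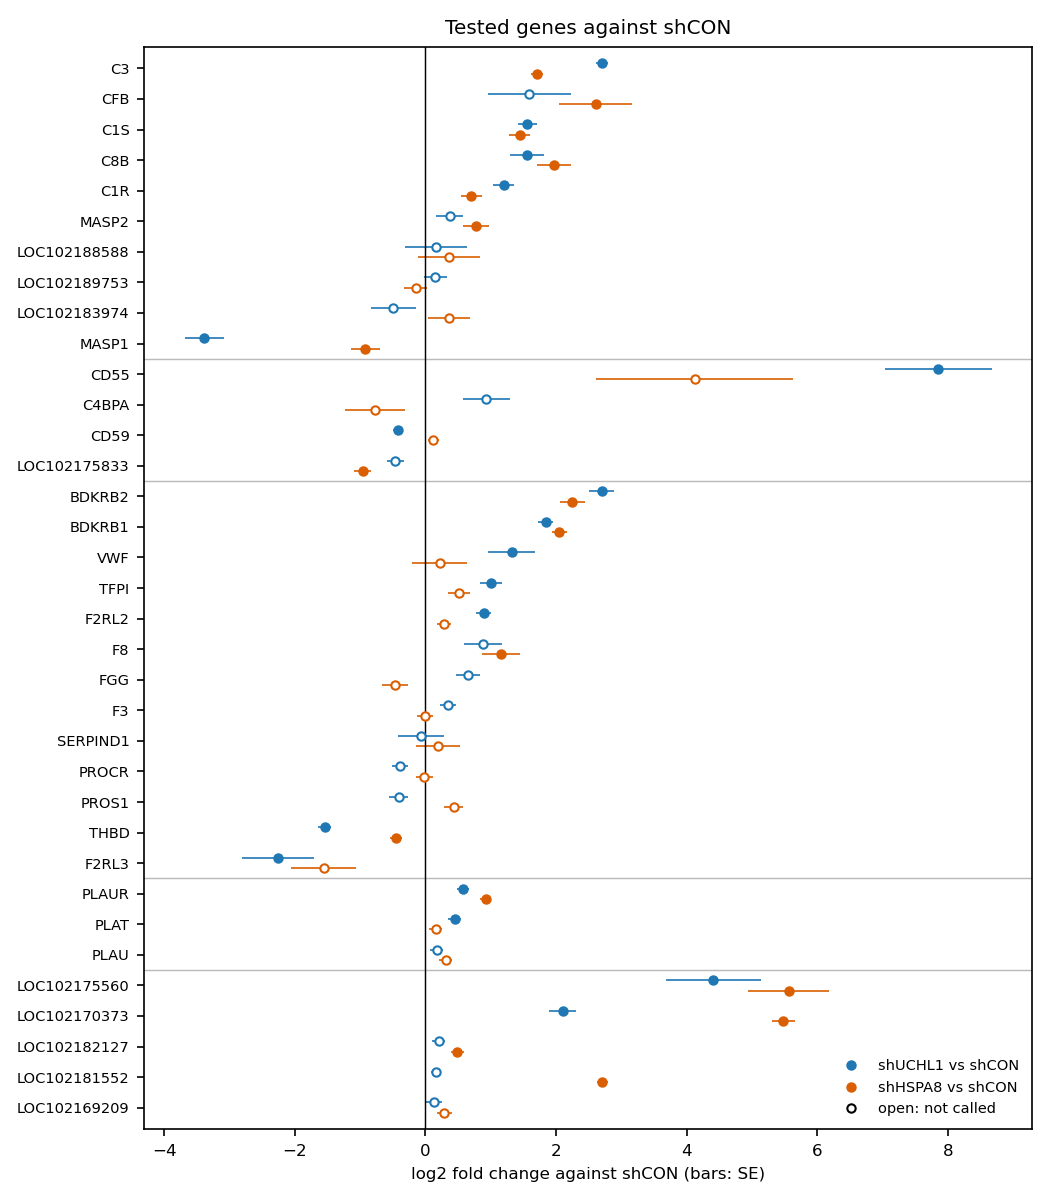
Log2 fold change against shCON of 35 of the tested genes in shUCHL1 and in shHSPA8, with bars of 1 SE, grouped from top to bottom as complement components, complement regulators or receptors, coagulation, plasminogen system and genes without an assigned role. Filled points passed the test. The points of CD55 and LOC102175560 rest on 0 and 1 shCON counts and their size depends on the fit.

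Of the 10 complement components tested, 4 were higher, 1 was lower and 5 were not called in shUCHL1. In shHSPA8, 6 were higher, 1 was lower and 3 were not called. Over all tested genes 8.54% were higher and 7.15% lower in shUCHL1, and 8.66% and 6.02% in shHSPA8. The single lower component in each line is thus near the background. C3, the protein on which all routes of activation converge, had 32.0 and 32.9 CPM in shCON, 211 and 210 CPM in shUCHL1 and 109 and 104 CPM in shHSPA8. The 3 lines did not overlap, and the 2 libraries of each line lay close together. C3 rose 6.48-fold in shUCHL1 (a log2 fold change of 2.70, SE 0.09, edgeR adjusted p = 8.34e-05) and 3.28-fold in shHSPA8 (1.71, SE 0.09, edgeR adjusted p = 7.18e-05). Between the knockdown lines it was 1.98-fold higher in shUCHL1 (0.98, SE 0.08, edgeR adjusted p = 0.00104). These calls held in every alternative run for C3.

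The proteases of the C1 complex were higher in both lines as well. C1S, which cleaves C4 and C2, had 4.69 and 5.14 CPM in shCON, 15.5 and 13.5 CPM in shUCHL1 and 14.2 and 12.5 CPM in shHSPA8. Both knockdown lines lay above shCON and overlapped each other. C1S rose 2.95-fold in shUCHL1 (a log2 fold change of 1.56, SE 0.15, edgeR adjusted p = 0.00108) and 2.71-fold in shHSPA8 (1.44, SE 0.16, edgeR adjusted p = 0.00121). C1R, which activates C1S, had 3.99 and 4.90 CPM in shCON, 10.6 and 9.89 CPM in shUCHL1 and 7.46 and 6.98 CPM in shHSPA8. It rose 2.31-fold in shUCHL1 (1.2, SE 0.16, edgeR adjusted p = 0.00349) and 1.62-fold in shHSPA8 (0.70, SE 0.16, edgeR adjusted p = 0.0316). The smaller rise of C1R in shHSPA8 had an edgeR, DESeq2 or limma adjusted p from 0.000185 to 0.137 over the alternatives. It was above 0.05 with DESeq2, with a replicate block, with voom weights and without shCON replicate 1 or any shUCHL1 or shHSPA8 library. C1R and its neighbour LOC102188569 each had a fractional count in 1 library, so some reads may be shared between them.

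The lectin route proteases did not move as a pair. MASP1 had 5.26 and 6.98 CPM in shCON, 0.733 and 0.420 CPM in shUCHL1 and 3.22 and 3.23 CPM in shHSPA8. The lines held separate ranges, with shUCHL1 the lowest. MASP1 was 10.5-fold lower in shUCHL1 than in shCON (log2 fold change -3.39, SE 0.30, edgeR adjusted p = 0.000715) and 5.55-fold lower than in shHSPA8 (-2.47, SE 0.32, edgeR adjusted p = 0.00443). Against shCON, MASP1 was 1.89-fold lower in shHSPA8 (-0.92, SE 0.22, edgeR adjusted p = 0.0359). That last call had an adjusted p from 5.19e-06 to 0.137 over the alternatives and was lost with DESeq2, the replicate block and voom weights, and without any 1 library other than shCON replicate 1. MASP2, the protease that cleaves C4 and C2 in the lectin route, had 6.52 and 4.47 CPM in shCON, 6.84 and 7.31 CPM in shUCHL1 and 8.60 and 10.2 CPM in shHSPA8. It was 1.71-fold higher in shHSPA8 (0.77, SE 0.20, edgeR adjusted p = 0.0463), a call with an adjusted p from 2.84e-06 to 0.195 over the alternatives that was lost without any 1 library other than shCON replicate 1, and with the replicate block, voom weights or no low-count filter.

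Of the terminal pathway, C8B, a subunit of the pore, had 1.71 CPM in each shCON library. The shUCHL1 libraries stood at 4.77 and 5.28 CPM and the shHSPA8 libraries at 8.09 and 5.37 CPM, both above shCON. C8B rose 2.92-fold in shUCHL1 (a log2 fold change of 1.55, SE 0.26, edgeR adjusted p = 0.00932) and 3.92-fold in shHSPA8 (1.97, SE 0.26, edgeR adjusted p = 0.00290). Its call in shUCHL1 was lost without shUCHL1 replicate 2 (edgeR adjusted p = 0.0661, with a range of 0.000603 to 0.0661 over the alternatives). Its partner C8A had 1 count in all libraries together. CFB, the protease of the alternative route, stood at 1 and 4 counts in shCON, 8 and 8 in shUCHL1 and 19 and 12 in shHSPA8. It passed the low-count filter through its shHSPA8 reads alone, the line where it is highest. It was 6.11-fold higher in shHSPA8 (2.61, SE 0.56, edgeR adjusted p = 0.0218), with an adjusted p from 0.000251 to 0.118 over the alternatives, above 0.05 with DESeq2 and voom weights and without shCON replicate 1 or shHSPA8 replicate 1. The size of this difference rests on few shCON counts: the log2 fold change was 1.96 without shCON replicate 1 and 3.81 without shCON replicate 2. The table assigns LOC102183974 to late complement defects and LOC102188588 and LOC102189753 to classical pathway defects. Their log2 fold changes in all 3 comparisons lay between -0.85 and 0.36, and none passed the test.

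**Figure D3:**
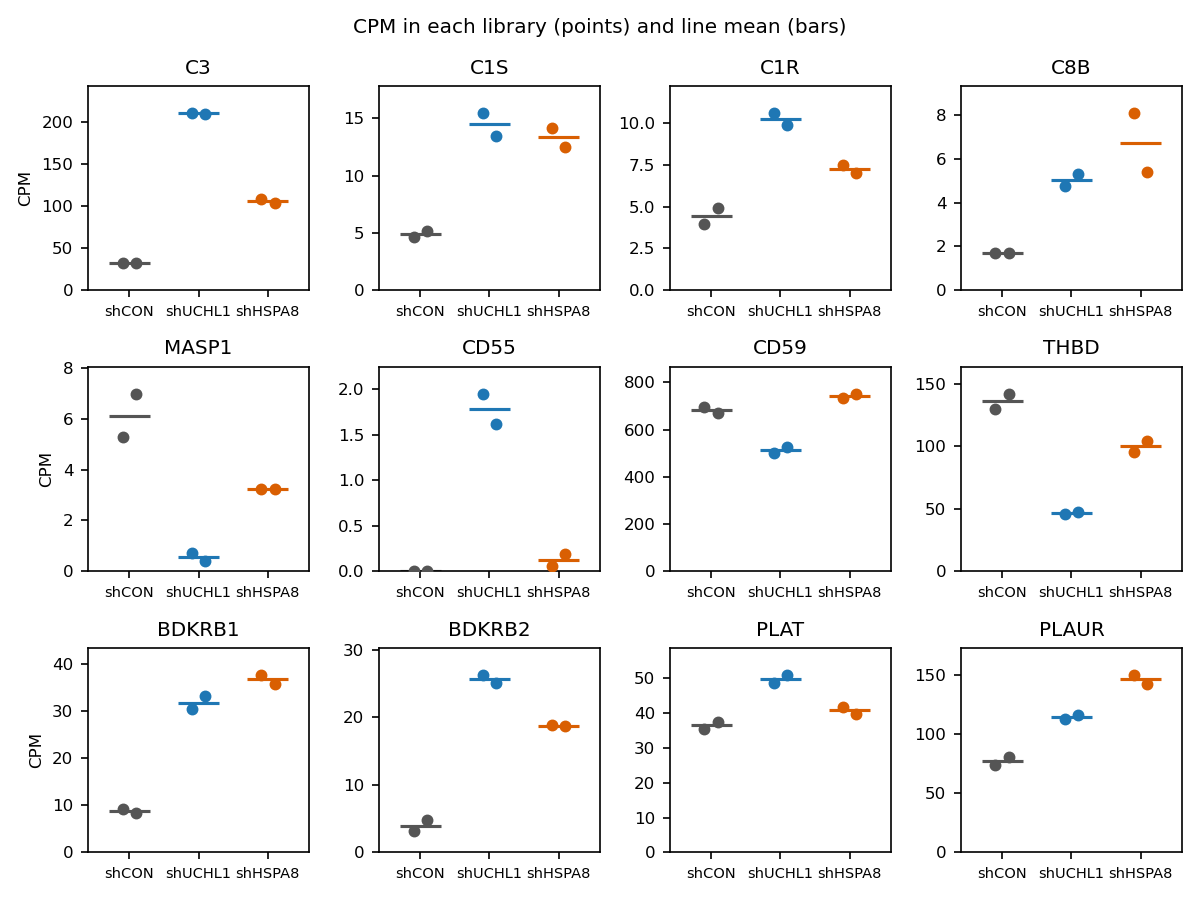
CPM of 12 genes in each library (points) with the mean of each line (bars), on linear axes that start at 0. C3 and C1S are higher in both knockdown lines than in shCON, MASP1 and THBD are lower in both, and CD55 is at 0 in both shCON libraries.

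Among the membrane regulators, CD55 and CD59 went opposite ways in shUCHL1. CD55, the decay-accelerating factor that dismantles C3 convertases, had 0 counts in both shCON libraries, 32 and 27 in shUCHL1 and 1 and 3 in shHSPA8. It was at least 19.1-fold higher in shUCHL1 than in shCON, set against a floor of 3 counts over the line (edgeR adjusted p = 0.00245). CD55 passed the low-count filter through its shUCHL1 reads alone, so its p-values follow a selection on the line where it is high. In shHSPA8 it had 4 counts over the line and was not called against shCON (edgeR adjusted p = 0.132). Between the knockdown lines it was 13.2-fold higher in shUCHL1 (log2 fold change 3.72, SE 0.48, edgeR adjusted p = 0.00628). The difference between the knockdown lines was lost without shUCHL1 replicate 1 (edgeR adjusted p = 0.0571, with a range of 6.77e-06 to 0.0571 over the alternatives), and its log2 fold change was 4.66 without shHSPA8 replicate 2. Even so, CD55 stayed a rare transcript, at 1.07 ± 0.120 FPKM in shUCHL1 beside 343 ± 12.6 FPKM for CD59.

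CD59 had 696 and 671 CPM in shCON, 499 and 525 CPM in shUCHL1 and 732 and 752 CPM in shHSPA8. The shUCHL1 libraries were the lowest and the shHSPA8 libraries the highest. CD59 was 1.33-fold lower in shUCHL1 than in shCON (log2 fold change -0.42, SE 0.08, edgeR adjusted p = 0.0116) and 1.45-fold lower than in shHSPA8 (-0.54, SE 0.08, edgeR adjusted p = 0.00555). Both calls were lost without either shUCHL1 library. The adjusted p ran from 0.00392 to 0.165 over the alternatives against shCON, and from 3.43e-07 to 0.108 against shHSPA8.

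LOC102175833, annotated with complement regulatory protein defects, had 19.8 and 21.6 CPM in shCON, 15.7 and 14.4 CPM in shUCHL1 and 11.4 and 9.89 CPM in shHSPA8. The lines were separate, with shHSPA8 the lowest. Against shCON this gene was 1.94-fold lower in shHSPA8 (log2 fold change -0.96, SE 0.13, edgeR adjusted p = 0.00371) and 1.41-fold higher in shUCHL1 than in shHSPA8 (0.50, SE 0.13, edgeR adjusted p = 0.0494). The second difference had an adjusted p from 0.00386 to 0.331 over the alternatives and was lost without any shUCHL1 or shHSPA8 library, with DESeq2, with the replicate block and with no low-count filter. CD59 and LOC102175833 had fractional counts in all 6 libraries, so reads may have been split between similar copies. C4BPA, a chain of the soluble C4b-binding protein, had 1.27 and 0.612 CPM in shCON, 1.95 and 1.62 CPM in shUCHL1 and 0.632 and 0.453 CPM in shHSPA8. Without the reads of shUCHL1, the line where it is highest, C4BPA would not have passed the low-count filter. It differed between the knockdown lines, 3.26-fold higher in shUCHL1 (1.70, SE 0.40, edgeR adjusted p = 0.0336), with an adjusted p from 0.00105 to 0.198 over the alternatives and no call with DESeq2 or without any shUCHL1 or shHSPA8 library.

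Of the 13 tested coagulation genes, 5 were higher and 2 lower in shUCHL1, and 3 were higher and 1 lower in shHSPA8. Over all tested genes the shares were 8.54% higher and 7.15% lower in shUCHL1 and 8.66% and 6.02% in shHSPA8, so the single lower gene in shHSPA8 is near the background. The largest rises in this group were those of the receptors for kinins, the vasoactive peptides that plasma kallikrein cuts from kininogen. BDKRB2, the constitutive B2 receptor, had 3.10 and 4.77 CPM in shCON, 26.3 and 25.1 CPM in shUCHL1 and 18.8 and 18.7 CPM in shHSPA8. It rose 6.50-fold in shUCHL1 (a log2 fold change of 2.70, SE 0.19, edgeR adjusted p = 0.000309) and 4.75-fold in shHSPA8 (2.25, SE 0.19, edgeR adjusted p = 0.000444). BDKRB1, the inducible B1 receptor, had 9.31 and 8.45 CPM in shCON, 30.5 and 33.2 CPM in shUCHL1 and 37.8 and 35.8 CPM in shHSPA8. It rose 3.58-fold in shUCHL1 (1.84, SE 0.12, edgeR adjusted p = 0.000290) and 4.14-fold in shHSPA8 (2.05, SE 0.12, edgeR adjusted p = 0.000107). These 4 calls held in every alternative, while the ligand's precursor KNG1 had 1 count and its protease KLKB1 4 counts over all libraries.

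Thrombomodulin, the membrane receptor that turns thrombin towards activating protein C, fell in both lines. THBD had 130 and 142 CPM in shCON, 46.1 and 47.1 CPM in shUCHL1 and 95.6 and 104 CPM in shHSPA8. The lines were separate, with shUCHL1 the lowest. THBD was 2.92-fold lower in shUCHL1 than in shCON (log2 fold change -1.54, SE 0.10, edgeR adjusted p = 0.000277) and 2.14-fold lower than in shHSPA8 (-1.10, SE 0.10, edgeR adjusted p = 0.00116), in every alternative run. Against shCON, THBD was 1.36-fold lower in shHSPA8 (-0.45, SE 0.09, edgeR adjusted p = 0.0209). That call had an adjusted p from 4.55e-11 to 0.138 over the alternatives, above 0.05 with the replicate block and without any shUCHL1 or shHSPA8 library. Its partner PROCR passed no test. The level of PROCR was 25.2 ± 2.3 CPM in shCON, with 19.2 ± 1.93 CPM for shUCHL1 and 24.9 ± 1.23 CPM for shHSPA8. PROS1, the cofactor protein S, passed only between the knockdown lines, 1.78-fold lower in shUCHL1 (9.57 ± 1.24 CPM) than in shHSPA8 (17.1 ± 1.27 CPM), with an edgeR adjusted p of 0.0138. Over the alternatives that p ran from 1.37e-05 to 0.137, and it was above 0.05 without either shUCHL1 library or shHSPA8 replicate 2.

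Tissue factor, the trigger of clotting, was not called in any comparison. F3 had 18.2 and 17.4 CPM in shCON, 21.3 and 23.7 CPM in shUCHL1 and 18.2 and 17.1 CPM in shHSPA8 (edgeR adjusted p = 0.0960 for shUCHL1 and 0.967 for shHSPA8 against shCON). Its inhibitor TFPI had 11.6 and 8.39 CPM in shCON, 20.6 and 19.3 CPM in shUCHL1 and 13.6 and 14.7 CPM in shHSPA8. TFPI rose 2.00-fold in shUCHL1 (a log2 fold change of 1.00, SE 0.17, edgeR adjusted p = 0.00889). The call was lost without either shUCHL1 library, where the adjusted p over the alternatives, 0.000165 to 0.0778, was highest. The ratio of F3 to TFPI, in FPKM, was 3.05 and 3.99 in the shCON libraries, 2.00 and 2.37 in shUCHL1 and 2.6 and 2.25 in shHSPA8.

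**Figure D4:**
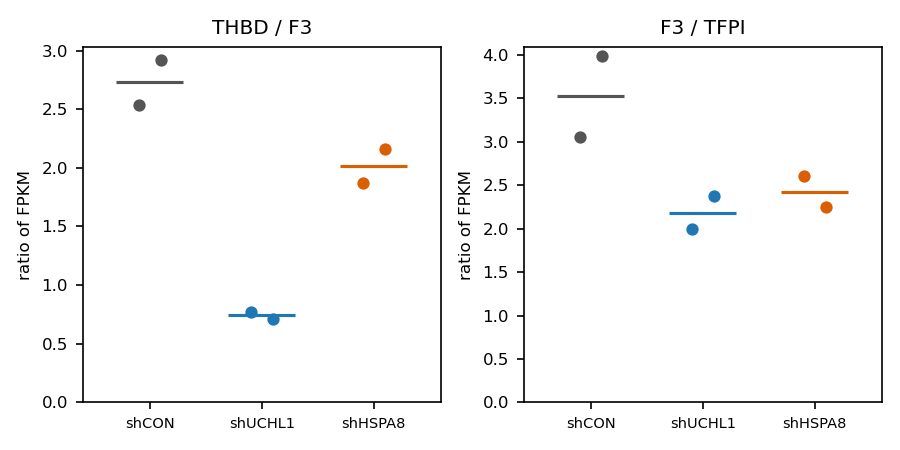
Ratios of FPKM in each library (points) with the mean of each line (bars): THBD over F3 and F3 over TFPI, on axes that start at 0. The shUCHL1 libraries are lowest for THBD over F3, at 0.772 and 0.712, against 2.54 and 2.92 in shCON and 1.87 and 2.16 in shHSPA8.

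The protease-activated receptors, through which thrombin signals to cells, split. F2RL2 had 17.8 and 18.0 CPM in shCON, 34.4 and 32.0 CPM in shUCHL1 and 22.8 and 20.6 CPM in shHSPA8. It rose 1.86-fold in shUCHL1 against shCON (log2 fold change 0.89, SE 0.11, edgeR adjusted p = 0.00288), in every alternative run, and was 1.53-fold higher there than in shHSPA8 (0.61, SE 0.11, edgeR adjusted p = 0.0133). The second call was lost without any shUCHL1 or shHSPA8 library (adjusted p from 5.58e-05 to 0.157 over the alternatives). F2RL3 had 13 and 30 counts in shCON, 3 and 6 in shUCHL1 and 7 and 7 in shHSPA8, and was 4.80-fold lower in shUCHL1 than in shCON (-2.26, SE 0.55, edgeR adjusted p = 0.0336). That adjusted p ran from 0.00969 to 0.210 over the alternatives, above 0.05 with DESeq2 and without any 1 library other than shCON replicate 1, and the log2 fold change was -1.57 without shCON replicate 2. F2RL3 passed the low-count filter through its shCON reads alone, the line where it is highest. F2R, the main thrombin receptor of many cells, had 11 counts in all.

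Clotting factors themselves were rare. F8 had 1.71 and 0.979 CPM in shCON, 2.38 and 2.58 CPM in shUCHL1 and 2.78 and 3.23 CPM in shHSPA8, and was 2.24-fold higher in shHSPA8 than in shCON (a log2 fold change of 1.16, SE 0.29, edgeR adjusted p = 0.0370). That adjusted p ran from 0.000188 to 0.157 over the alternatives and was above 0.05 with DESeq2, the replicate block and voom weights and without any 1 library other than shCON replicate 1. VWF, the carrier of factor VIII, stood at 9 and 6 counts in shCON, 20 and 19 in shUCHL1 and 7 and 10 in shHSPA8. It would not have passed the low-count filter without the reads of shUCHL1, the line where it is highest. Its call in shUCHL1 (2.50-fold higher, edgeR adjusted p = 0.0477) was lost without any 1 of the 6 libraries and with DESeq2, no low-count filter, the replicate block and voom weights. Its adjusted p ran from 0.0350 to 0.293 over the alternatives and stayed under 0.05 only with library-size scaling and the length correction. FGG, the gamma chain of fibrinogen, averaged 3.52 ± 0.048 CPM in shCON, with 5.51 ± 0.0979 CPM for shUCHL1 and 2.55 ± 0.502 CPM for shHSPA8. FGG was higher by 2.15-fold in shUCHL1 than in shHSPA8 (edgeR adjusted p = 0.0118, with a range of 0.000183 to 0.1 over the alternatives and no call without either shUCHL1 library or shHSPA8 replicate 2). The beta chain FGB had 5 counts. SERPIND1, a heparin-dependent inhibitor of thrombin, lay between 0.916 and 1.75 CPM in all libraries and passed no test.

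In the plasminogen system the urokinase receptor rose in both lines. PLAUR, the receptor that holds urokinase at the cell surface, had 74.0 and 80.3 CPM in shCON, 113 and 116 CPM in shUCHL1 and 150 and 142 CPM in shHSPA8. It rose 1.48-fold in shUCHL1 (a log2 fold change of 0.57, SE 0.09, edgeR adjusted p = 0.00741) and 1.89-fold in shHSPA8 (0.92, SE 0.09, edgeR adjusted p = 0.000830), the latter in every alternative. The rise in shUCHL1 was not called without either shUCHL1 library, with an adjusted p from 0.000745 to 0.11 over the alternatives. PLAUR was 1.28-fold lower in shUCHL1 than in shHSPA8 (-0.35, SE 0.09, edgeR adjusted p = 0.0407), a call lost without any shUCHL1 or shHSPA8 library, with library-size scaling and with the replicate block (adjusted p from 0.000441 to 0.327 over the alternatives).

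The activators moved little. PLAT, tissue plasminogen activator, had 35.5 and 37.5 CPM in shCON, 48.6 and 51.0 CPM in shUCHL1 and 41.8 and 39.8 CPM in shHSPA8. It rose 1.37-fold in shUCHL1 (a log2 fold change of 0.45, SE 0.10, edgeR adjusted p = 0.0208), with an adjusted p from 0.00698 to 0.230 over the alternatives and no call with the replicate block or without either shUCHL1 library. PLAU, urokinase, had 27.2 and 25.9 CPM in shCON, 29.4 and 30.1 CPM in shUCHL1 and 31.4 and 34.4 CPM in shHSPA8 and passed no test. Plasminogen itself (PLG) had 3 counts, all in shUCHL1 replicate 1.

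The genes known only by a LOC identifier and without an assigned role held the largest differences of shHSPA8. LOC102170373, whose nearest named neighbours in the ARS1.2 assembly are CDH7 and SYT4, had 1.71 and 1.10 CPM in shCON, 5.93 and 6.18 CPM in shUCHL1 and 61.5 and 64.5 CPM in shHSPA8. It rose 44.7-fold in shHSPA8 (log2 fold change 5.48, SE 0.18, edgeR adjusted p = 1.51e-05) and 4.30-fold in shUCHL1 (2.10, SE 0.21, edgeR adjusted p = 0.00105), and was 10.4-fold lower in shUCHL1 than in shHSPA8 (-3.38, SE 0.15, edgeR adjusted p = 7.69e-05). LOC102181552, next to the serine protease inhibitor gene SERPINB7, had 50.3 and 50.7 CPM in shCON, 56.8 and 55.9 CPM in shUCHL1 and 332 and 329 CPM in shHSPA8. It rose 6.54-fold in shHSPA8 (2.71, SE 0.08, edgeR adjusted p = 1.51e-05) and was not called in shUCHL1 (0.16, SE 0.08, edgeR adjusted p = 0.256). Between the knockdown lines it was 5.87-fold lower in shUCHL1 (-2.55, SE 0.08, edgeR adjusted p = 3.12e-05). All calls for this pair held in every alternative.

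LOC102175560, between KLRG1 and PEX5, had 1 and 0 counts in shCON, 11 and 16 in shUCHL1 and 30 and 27 in shHSPA8. The ratio of its summed counts to shCON was 26.3 in shUCHL1 (95% exact counting interval 4.33 to 1075) and 58.5 in shHSPA8 (10.1 to 2352), intervals that cover counting error only. Its call in shUCHL1 (edgeR adjusted p = 0.00863) was lost without shUCHL1 replicate 2 (edgeR adjusted p = 0.0600, with a range of 0.00520 to 0.0600). LOC102182127, between SCARA3 and TMEM215, was the most abundant of these genes in shCON per length, at 197 ± 14.2 FPKM, and had 286 and 317 CPM in shCON, 335 and 357 CPM in shUCHL1 and 456 and 392 CPM in shHSPA8. It was 1.41-fold higher in shHSPA8 than in shCON (a log2 fold change of 0.49, SE 0.10, edgeR adjusted p = 0.0205). Over the alternatives that adjusted p ran from 5.03e-14 to 0.123, above 0.05 with the replicate block and without either shUCHL1 library, shCON replicate 1 or shHSPA8 replicate 1. LOC102169209, in the stretch between CD34 and F13B that also holds LOC102169502 and LOC102169786, lay between 225 and 322 CPM in all libraries and passed no test.

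The knockdown lines were also compared with each other, which the series title invites by setting UCHL1 against HSPA8. Of the 36 genes, 6 were higher in shUCHL1 and 8 lower, where 6.2% of all tested genes were higher and 8.35% lower. The median log2 fold change was -0.24 against 0.02 over all genes. The higher genes include CD55 and C4BPA, which would not have passed the low-count filter without their shUCHL1 reads. The split of all calls depends on the scaling: 42.6% of changed genes were higher with TMM and 64.4% with library-size scaling, which moved the median of all genes from 0.02 to 0.12. With library-size scaling 10 of the 36 genes were higher and 7 lower. In shUCHL1 against shCON the same change of scaling moved the share of changed genes that were higher from 54.5% to 68.1%, with 15 of the 36 genes higher and 5 lower. The differences between the knockdown lines that held in every alternative included the higher C3 and the lower MASP1, THBD, LOC102170373 and LOC102181552 in shUCHL1. Leaving out a library gave 1 to 9 higher and 5 to 11 lower genes, with 1 higher without shUCHL1 replicate 1, 2 higher without shUCHL1 replicate 2 or shHSPA8 replicate 2, and 3 higher without shHSPA8 replicate 1. Either shUCHL1 library left out gave 5 lower.

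**Figure D5:**
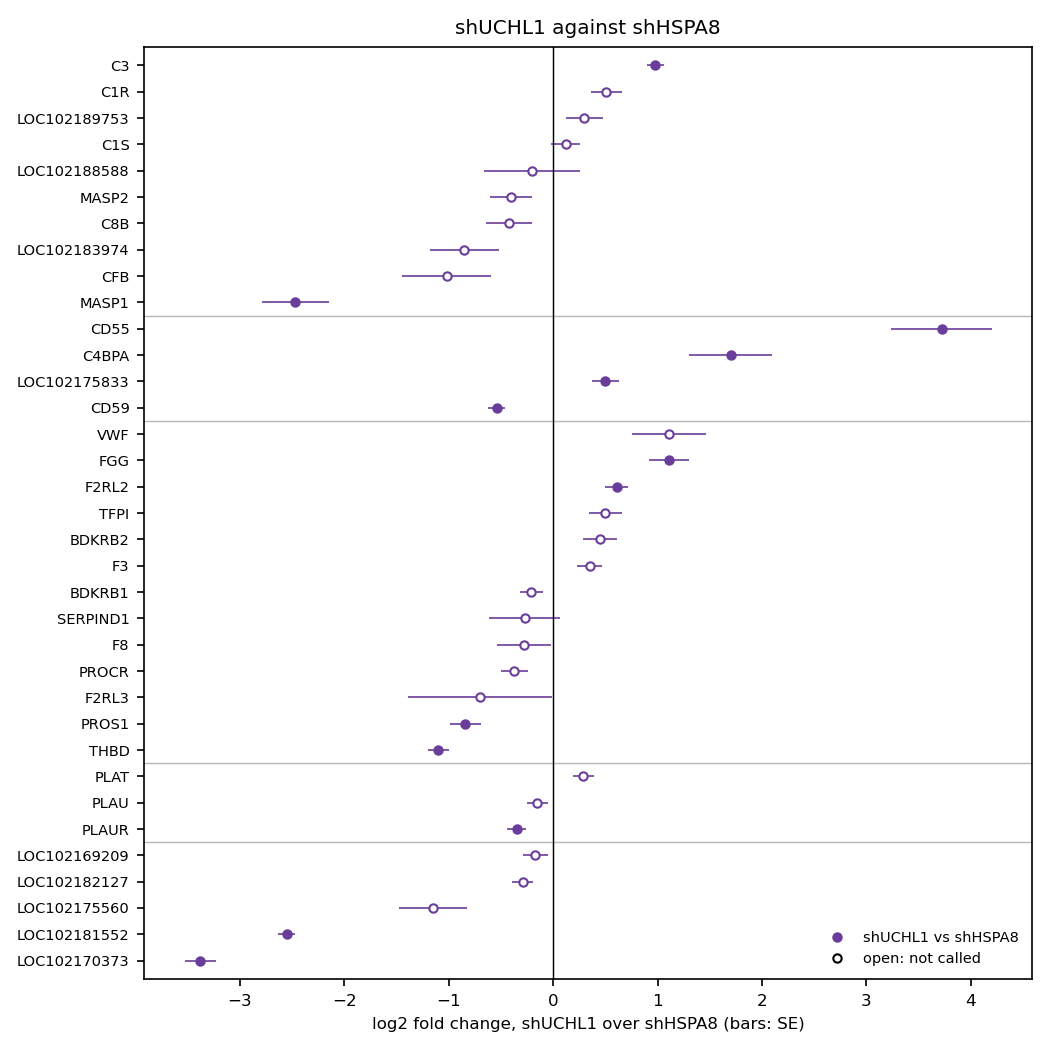
Log2 fold change of shUCHL1 over shHSPA8 for 35 of the tested genes, with bars of 1 SE, in the same order of roles; filled points passed the test. CD55 (3.72) and C4BPA (1.70) stand highest, and LOC102170373 (-3.38) and LOC102181552 (-2.55) lowest. CD55 and C4BPA would not have passed the low-count filter without their shUCHL1 reads.

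Related genes outside the KEGG entry were taken from a list by function, and their counts stand beside 8.54% higher and 7.15% lower over all tested genes in shUCHL1 and 8.66% and 6.02% in shHSPA8. Of 6 tested complement-related genes, 2 were higher and 1 lower in shUCHL1, and 4 were higher in shHSPA8. PTX3, a pentraxin that binds C1q, averaged 5.61 ± 0.75 CPM in shCON, with 14.6 ± 0.233 CPM for shUCHL1 and 32.8 ± 0.655 CPM for shHSPA8, a rise of 2.61-fold (edgeR adjusted p = 0.00113) and 5.84-fold (edgeR adjusted p = 7.48e-05) that held in every alternative. Of 12 coagulation-related genes, 2 were lower and none was higher in shUCHL1. In shHSPA8, 1 was higher and 1 lower, shares near those over all genes. THBS1, a platelet and matrix glycoprotein, was 2.31-fold lower in shUCHL1 (4388 ± 127 CPM) than in shCON (10121 ± 1513 CPM, edgeR adjusted p = 0.00218), and TGM2, a transglutaminase that cross-links matrix, was lower in both lines (1.71-fold and 1.66-fold). TFPI2, an inhibitor of plasmin related to TFPI, was 2.13-fold higher in shHSPA8 (187 ± 16.8 CPM) than in shCON (87.7 ± 3.99 CPM, edgeR adjusted p = 0.000615). Of 10 plasminogen-related genes, 1 was higher in shUCHL1, and 3 were higher and 1 lower in shHSPA8. LRP1, the endocytic receptor that takes up plasminogen activators, was 1.90-fold higher in shHSPA8 (1659 ± 110 CPM) than in shCON (872 ± 27.3 CPM, edgeR adjusted p = 0.000490), and HGF, a plasminogen-related growth factor, was 3.38-fold higher (edgeR adjusted p = 0.00186). Between the knockdown lines, 3 of 6 complement-related, 3 of 12 coagulation-related and 3 of 10 plasminogen-related genes were lower in shUCHL1. Only S100A10, a plasminogen-related gene, was higher there. Over all tested genes 8.35% were lower and 6.2% higher in this comparison. The calls against shCON of THBS1, TGM2, TFPI2, LRP1 and HGF named here held in every alternative.

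Markers of cell types that make or carry these proteins were read beside the results. Of 6 hepatocyte markers, 4 carried values: ALB had 1 count and FGB 5 counts over all libraries, and APOA1 supplied nearly all of a summed level of 53.1 and 65.0 CPM in shCON, 29.9 and 33.2 CPM in shUCHL1 and 16.7 and 21.8 CPM in shHSPA8. Of 10 macrophage and leukocyte markers, 7 carried values, with PTPRC at 7 counts in all. Their summed level was 500 and 506 CPM in shCON, 176 and 190 CPM in shUCHL1 and 301 and 305 CPM in shHSPA8, below shCON in both lines. LCP1 made up most of the sum, with 460 ± 0.638 CPM in shCON against 129 ± 4.49 CPM for shUCHL1 and 236 ± 7.37 CPM for shHSPA8. The markers did not move together: CORO1A was called 1.91-fold lower in shUCHL1 (edgeR adjusted p = 0.0392), while CD14 was called 1.63-fold higher in shHSPA8 (edgeR adjusted p = 0.00662). CD14 stood at 36.0 ± 1.96 CPM in shCON against 47.5 ± 4.2 CPM for shUCHL1 and 58.5 ± 3.82 CPM for shHSPA8, and CD68 and FCER1G passed no test against shCON. The 5 endothelial markers with values summed to 52.3 and 54.5 CPM in shCON, 11.9 and 12.2 CPM in shUCHL1 and 10.3 and 11.1 CPM in shHSPA8, below shCON in both lines. That sum was mostly EMCN (50.9 ± 1.92 CPM in shCON, 8.86 ± 1.04 CPM in shUCHL1, 7.25 ± 0.382 CPM in shHSPA8). Of the other 3 tested, KDR was called 3.51-fold higher in shHSPA8 than in shCON (edgeR adjusted p = 0.0288). KDR had 7 and 6 counts in shCON, 15 and 7 in shUCHL1 and 23 and 22 in shHSPA8. Without the reads of shHSPA8, the line where it is highest, it would not have passed the low-count filter. CDH5 and TEK, with 1.09 and 0.405 CPM in shCON, passed no test against shCON. Sertoli cell markers, 7 of 8 with values, summed to 179 and 187 CPM in shCON, 134 and 135 CPM in shUCHL1 and 90.6 and 91.5 CPM in shHSPA8. GATA4 (103 CPM in shCON) and SOX9 (71.9 CPM in shCON) supplied most of that sum. Of the 4 tested, GATA4 and WT1 were called lower in shUCHL1, and GATA4 and SOX9 in shHSPA8. AMH was not called, with a log2 fold change of 0.58 in both lines. Fibroblast and myoid markers summed to 22369 and 23499 CPM in shCON, 28160 and 28816 CPM in shUCHL1 and 33521 and 33525 CPM in shHSPA8. Collagen transcripts carried the sum, and of the 10 markers 3 were called higher and 2 lower in shUCHL1, and 5 higher in shHSPA8. Over all tested genes 8.54% were higher and 7.15% lower in shUCHL1, and 8.66% were higher in shHSPA8. The 2 markers lower in shUCHL1 are smooth muscle and myoid genes, ACTA2 (2.98-fold, edgeR adjusted p = 0.00043) and CNN1 (14.7-fold, edgeR adjusted p = 0.000454). MYH11, also a smooth muscle gene, was not called there (log2 fold change 0.38, SE 0.35, edgeR adjusted p = 0.527). ACTA2 stood at 1641 ± 233 CPM in shCON against 550 ± 23.2 CPM for shUCHL1 and 1237 ± 123 CPM for shHSPA8. Platelet markers, 4 of 5 with values, summed to between 7.84 and 11.4 CPM in each library. ITGA2B and GP9 supplied nearly all of that sum, while PPBP had 2 counts and GP1BA 7 counts over all libraries. The part of any of these cell types in the results was not tested.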

How the data were processed

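RNA of 6 libraries was sequenced, and per the labels' protocols libraries were made with a SMARTER mRNA-seq kit. The submitters' processing notes name Trimmomatic 0.36. Which aligner, counter, genome build or strand option was used is not given in the sources used here. The authors deposited, per the file headers, FPKM and read counts per library. Between 1014 and 1117 genes per library have fractional read counts, so the deposited values were treated like estimated counts and rounded before testing. The authors also deposited mean counts per line, log2 ratios and p-values, which were not used here.

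Counts were tested with edgeR 4.0.16 (R 4.3.3): filterByExpr, TMM scaling, quasi-likelihood F test, group as the only term, all 6 libraries in 1 fit, Benjamini-Hochberg adjustment per comparison. The SE is the log2 fold change divided by the square root of F. Total counts ran from 1.57e+07 to 1.64e+07. The fit was tested on simulated data.

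Members and lists were chosen with earlier results of these data known. All members are named except a pair not reported here, which stay in the counts. Per-library values are given for members called in any comparison, up to 6 per role by size of change at 1 CPM or more. Roles came from a list by symbol, and for LOC entries from the table's disease annotation. All 70 were found in RefSeq's ARS1.2 gene table, which gave neighbours only. Sequences were not used here. Alternatives were DESeq2 1.42.0, library-size scaling, filters, a replicate block, limma 3.58.1 voom with weights per line, a length correction from counts over FPKM, and each library left out.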

Additional observations from a re-analysis of the deposited data

How the results depend on the processing

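No called gene among the 36 tested changed direction under any alternative run. Against shCON, 11 of the 19 called genes of shUCHL1 and 10 of the 17 of shHSPA8 kept their call in every alternative, as did 6 of the 14 called directly, and 7, 6 and 12 uncalled genes were called in at least 1. Leaving out a library gave 528 to 2615 changed genes among all genes in shUCHL1, 920 to 2416 in shHSPA8 and 257 to 3083 between the knockdown lines, and of the 36 genes 8 to 15 higher and 3 to 7 lower, 9 to 13 higher and 1 to 4 lower, and 1 to 9 higher and 5 to 11 lower, in that order. A left-out library leaves its line with 1 library, which is assumed to vary like the others. With the replicate block 1230, 1131 and 923 of all genes changed in the 3 comparisons, against 1987, 1859 and 1843 without it, and 1 of the 36 genes was lower in shHSPA8. The replicate numbers are not stated to mark a shared batch: same-numbered libraries correlated, in their deviations from the line means over genes, at 0.23 for shUCHL1 and shCON, -0.54 for shHSPA8 and shCON and -0.23 for shUCHL1 and shHSPA8. A crossed replicate block, chosen after seeing the data, gave 5464 changed genes in shHSPA8 and 5177 between the knockdown lines, with 12 of the 36 genes higher and 14 lower in the latter. With voom weights per line 1132 genes changed in shHSPA8 and 3456 between the knockdown lines, 12 of the 36 genes being higher in the latter. The length correction gave 2874 changed genes between the knockdown lines, and library-size scaling gave 10 of the 36 genes higher there. The cause of these shifts was not tested. With 2 libraries per line, small differences may have gone undetected.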
